A study of Mus musculus with 12 samples.

Results

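Levels of 4 genes that encode subunits of the SAGA transcriptional coactivator, *Supt7l*, *Tada2b*, *Kat2a* and *Kat2b*, were compared in sorted mouse microglia. They are 4 of the 770 genes of the NanoString nCounter Neuroinflammation panel, picked by name, and all 4 were found in the deposited table. They were picked with their values in view, and *Supt7l* had the 4th largest increase of the 770 genes between aged microglia with high and with low ERK1/2 phosphorylation. Their levels and differences are therefore a description, without p-values, and calls among them are counted only beside the share of all genes called. The study asked how aged microglia with high ERK1/2 phosphorylation differ from aged microglia with low ERK1/2 phosphorylation and from adult microglia. Fixed microglia were sorted from the CNS of C57B6 mice, and each of the 12 samples pooled CNS tissue of 1 male and 1 female mouse. There were 4 samples of P-ERK1/2 High microglia (called High, samples 2, 5, 7 and 8) and 4 of P-ERK1/2 Low microglia (called Low, samples 3, 6, 9 and 12), all from aged mice of over 80 weeks. The adult mice were 12 to 20 weeks old, and adult microglia were not divided by ERK1/2 phosphorylation (samples 1, 4 and 10). Adult sample 11, whose title calls it excluded because of its quality, is shown apart. The gate in the study's methods was YFP+, CD45 intermediate and Ly6G- after enrichment with CD11b beads. The study describes YFP as a reporter under the *Cx3cr1* promoter, and the labels name no reporter allele. The labels call mice and cells untreated, whereas the study's legend for this experiment describes tamoxifen in all mice, given recently in adult mice and long before sampling in aged mice. Age and time since tamoxifen therefore cannot be told apart in comparisons with adult. It is not stated whether High and Low samples came from the same pools of mice.

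SAGA is a large complex that activators bring to promoters. It acetylates histone H3 through one module, removes ubiquitin from histone H2B through another and helps TBP, the TATA-binding protein, to load. SUPT7L belongs to the structural core that holds the modules together. TADA2B is the adaptor that places the acetyltransferase module in SAGA, where its paralogue TADA2A serves the related ATAC complex. KAT2A (GCN5) and KAT2B (PCAF) are the acetyltransferases of that module and occupy the same place in it, so a complex holds one or the other. *Supt7l* and *Tada2b* also serve this panel as references, since they belong to the 13 housekeeping genes used to bring samples to a common level.

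Values are the authors' normalized counts, each a raw count times a single factor per sample, chosen so that the 13 housekeeping genes have the same geometric mean, 173, in every sample. Counts recovered from the values summed to 137980 to 326575 in the 3 kept adults, 123798 to 157209 in Low and 650965 to 1539936 in High. A gene was taken as above background where its count exceeded the mean plus 2 SD of the 8 negative control probes of that sample, a level that lay at 69.2 to 117 normalized units in Low, 37.9 to 95.1 in adult and 26.1 to 39.5 in High. Small values are therefore resolved best in High. Sample 11 stood apart, with 1464433 counts, a geometric mean of 286 over the 6 positive control probes against 954 to 1460 in the other samples, and 16 genes listed at 1 against 0 in every other sample. Of 10 microglia markers, all 10 were above background in every High sample, 7 in every adult and 4 in every Low sample, where *P2ry12* and *Gpr34* were above background in none. A lower value in sorted cells cannot be divided into fewer cells of a type and less RNA per cell.

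The 250 bases before the RefSeq start of *Supt7l* and of *Tada2b* are shown because these are the 2 members that serve as housekeeping genes and whose levels moved apart. RefSeq places both genes on the minus strand of chromosome 5 (GRCm38.p6), *Supt7l* at chr5:31526763-31527012 and *Tada2b* at chr5:36484286-36484535. Capitals mark matches on either strand to an ETS core (CCGGAA), an SP1 box (GGGCGG) or a CCAAT box.
Supt7l: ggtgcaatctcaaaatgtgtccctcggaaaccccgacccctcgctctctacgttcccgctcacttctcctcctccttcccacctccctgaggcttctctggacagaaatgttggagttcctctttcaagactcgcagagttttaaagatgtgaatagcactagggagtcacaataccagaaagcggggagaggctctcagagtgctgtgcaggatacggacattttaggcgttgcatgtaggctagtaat
Tada2b: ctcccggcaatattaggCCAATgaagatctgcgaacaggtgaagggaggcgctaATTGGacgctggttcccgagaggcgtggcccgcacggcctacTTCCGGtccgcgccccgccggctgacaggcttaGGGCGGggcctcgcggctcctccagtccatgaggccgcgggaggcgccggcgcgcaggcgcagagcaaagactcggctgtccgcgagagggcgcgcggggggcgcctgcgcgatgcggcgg
The *Supt7l* window has a GC content of 51.2%, near the median of 52.4% over 32841 mouse promoter windows of this length, and the *Tada2b* window has 71.6%. The *Tada2b* window holds 1 ETS core, 1 SP1 box and 2 CCAAT boxes, none overlapping another, and the *Supt7l* window holds none of them. Of all windows, 12.0% hold the ETS core, 32.7% the SP1 box and 33.9% the CCAAT box. Neither window holds an AP-1 site (TGANTCA, in 6.75% of windows) or a CRE (TGACGTCA, in 1.55%), which says only that these letters are not in these bases.

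*Supt7l*, the core subunit, was read at a high level in all 4 High samples, at 741, 680, 887 and 859 normalized units in samples 2, 5, 7 and 8. The Low samples 3, 6, 9 and 12 read 74.5, 84.1, 85.6 and 65.6, and the adult samples 1, 4 and 10 read 74.9, 102 and 106. Every High value lay above every other kept value, while the adult and Low ranges overlapped. The group means were 792 ± 97.5 (SD, n = 4) in High, 77.5 ± 9.30 (SD, n = 4) in Low and 94.5 ± 17.1 (SD, n = 3) in adult. The ratio of means was 10.2-fold over Low and 8.38-fold over adult, and the lowest High sample was 7.95-fold above the highest Low sample. On the log2(value + 1) scale the differences were 3.34 (SE 0.21) and 3.06 (SE 0.25), and Low differed from adult by -0.27 (SE 0.18). These values rest on 609 to 952 counts per sample in High but on 16 to 32 in Low, where only sample 9 was above background. The 16 counts of sample 12 have an exact 95% Poisson interval of 9.15 to 26.0, which covers counting error only. With each Low sample set at its background level where it read below it, the ratio of High to Low was 7.64-fold. In adult sample 1 *Supt7l* was not above background either, and the same step gave a ratio of High to adult of 7.82-fold. Sample 11 read 583 on 751 counts, above every kept adult sample and below every High sample. Added to the adults, it moved the difference of High from adult from 3.06 to 2.40 and that of Low from adult from -0.27 to -0.93.

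**Figure D1:**
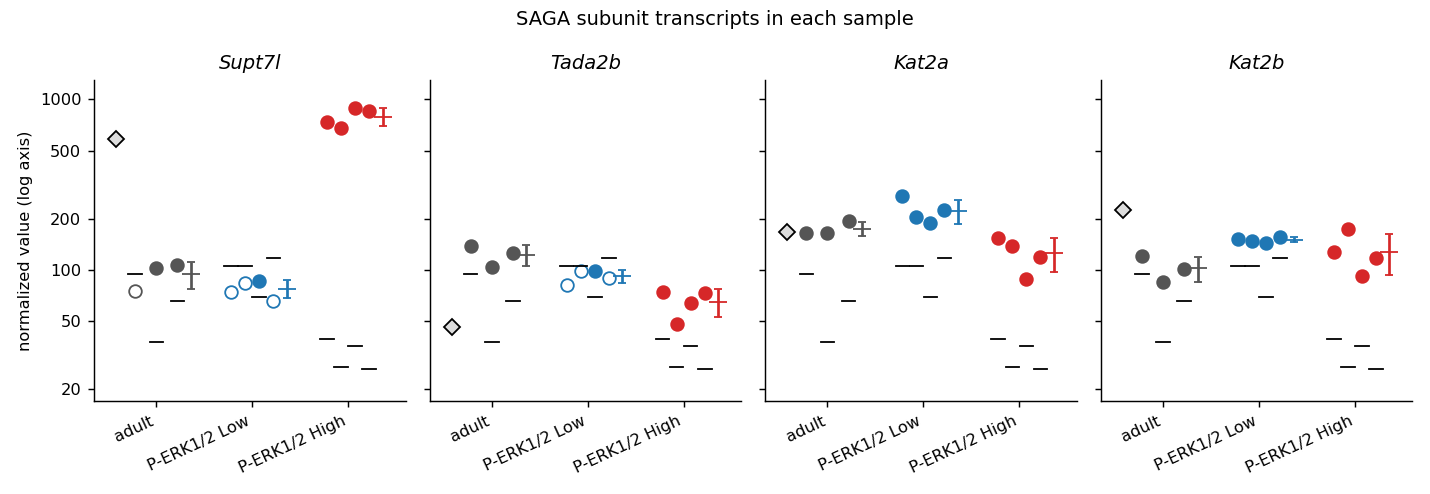
Normalized value of each subunit gene (log axis) in every sample by group. Filled circles were above background and open circles were not, black dashes give the background of that sample, crosses with bars the mean and SD, and grey diamonds adult sample 11. The High samples of *Supt7l* lie between 680 and 887, and no other kept sample exceeds 106.

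*Tada2b*, the adaptor of the acetyltransferase module and the other SAGA housekeeping gene, was ordered the other way. The adult samples read 138, 104 and 126, the Low samples 81.3, 98.2, 99.0 and 90.3 and the High samples 74.3, 47.9, 64.0 and 73.5. The 3 groups did not overlap, with adult highest and High lowest. Means were 123 ± 17.6 (SD, n = 3) in adult, 92.2 ± 8.24 (SD, n = 4) in Low and 64.9 ± 12.3 (SD, n = 4) in High. The log2 difference of High was -0.52 (SE 0.22) from Low and -0.92 (SE 0.26) from adult. The place of Low in this order is weakly held, since only sample 9 of that group was above background, on counts of 22 to 37. In High all 4 samples were above background, on 57 to 67 counts. With the mean negative control count subtracted, the difference between High and Low fell to -0.15, and with values under the level of 12 genes taken as unexpressed in microglia raised to that level it was 0.07. The same raising of low values moved the difference of High from adult to -0.33. Sample 11 read 46.5, below every other sample, and with it among the adults that difference was -0.58.

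*Kat2a*, the GCN5 acetyltransferase, was above background in every sample. The Low samples read 271, 203, 187 and 226, the adult samples 166, 164 and 193 and the High samples 155, 138, 88.7 and 119. High lay below both other groups, which overlapped with each other. Means were 222 ± 36.4 (SD, n = 4) in Low, 174 ± 16.1 (SD, n = 3) in adult and 125 ± 28.3 (SD, n = 4) in High. High differed from Low by -0.84 (SE 0.24) and from adult by -0.50 (SE 0.26) on the log2 scale.

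*Kat2b*, the PCAF acetyltransferase, was also above background in every sample. The Low samples read 152, 147, 144 and 156, the High samples 127, 174, 92.1 and 118 and the adult samples 120, 85.0 and 101. Low lay above adult in every sample, and High overlapped both. Means were 150 ± 5.13 (SD, n = 4) in Low, 128 ± 34.4 (SD, n = 4) in High and 102 ± 17.6 (SD, n = 3) in adult. The log2 difference of Low from adult was 0.56 (SE 0.15), that of High from Low -0.27 (SE 0.23) and that of High from adult 0.30 (SE 0.28). With sample 11 among the adults the first was 0.28, and with single samples left out the others ran from -0.43 to -0.12 and from 0.13 to 0.44. Sample 11 read 224, higher than any other sample, while its *Kat2a* value of 166 lay within the adult range.

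A gene counted as called with a limma p below 0.01 and a log2 difference larger than 1 in size. Of the 4 genes, 1 was called higher and 0 lower in High against Low, where 28.2% of the 770 genes were called higher, 9.61% were called lower and 49.4% had groups that did not overlap (3 of the 4 members). In High against adult 1 of the 4 was again called higher, against 29.2% higher and 7.66% lower over all genes, and 3 of the 4 had groups that did not overlap against 50.3%. In Low against adult 0 of the 4 were called, against 8.05% higher and 2.73% lower, and 2 of the 4 had groups that did not overlap against 36.5%. The called gene was *Supt7l* both times. These contrasts were known when the genes were picked, and those sharing a group are not independent, so nothing is read from the shares.

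A ratio of 2 genes within a sample does not depend on the factor of that sample, and while both genes are well above background its difference between groups does not depend on how well each probe works. In Low, *Supt7l* and *Tada2b* were each above background in 1 of 4 samples, so the size of any ratio with either gene there is uncertain. The log2 ratio of *Supt7l* to *Tada2b* was 3.32, 3.83, 3.79 and 3.55 in High, -0.13, -0.22, -0.21 and -0.46 in Low and -0.89, -0.02 and -0.25 in adult. It was higher by 3.88 in High than in Low and by 4.00 than in adult, or by 3.47 and 3.58 with a pseudocount of 20, and Low and adult overlapped. Sample 11 had 3.65, within the range of High. The ratio of *Kat2a* to *Kat2b*, the alternative acetyltransferases, ran from 0.46 to 0.95 in adult, 0.37 to 0.83 in Low and -0.34 to 0.29 in High. High lay below both other groups in this ratio, with differences of -0.57 from Low and -0.80 from adult on the log2 scale. Sample 11 had -0.43, below every High sample, and with it among the adults the difference of High from adult was -0.50 and that of Low from adult moved from -0.23 to 0.07. *Tada2b* to *Kat2b* ran from 0.20 to 0.31 in adult and was below 0 in all aged samples, at -0.91 to -0.55 in Low and -1.86 to -0.52 in High. Sample 11 had -2.27, below every aged sample, and adding it moved the difference of Low from adult from -0.97 to -0.34 and that of High from adult from -1.23 to -0.59. With a pseudocount of 20 the difference of Low from adult was -0.83.

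**Figure D2:**
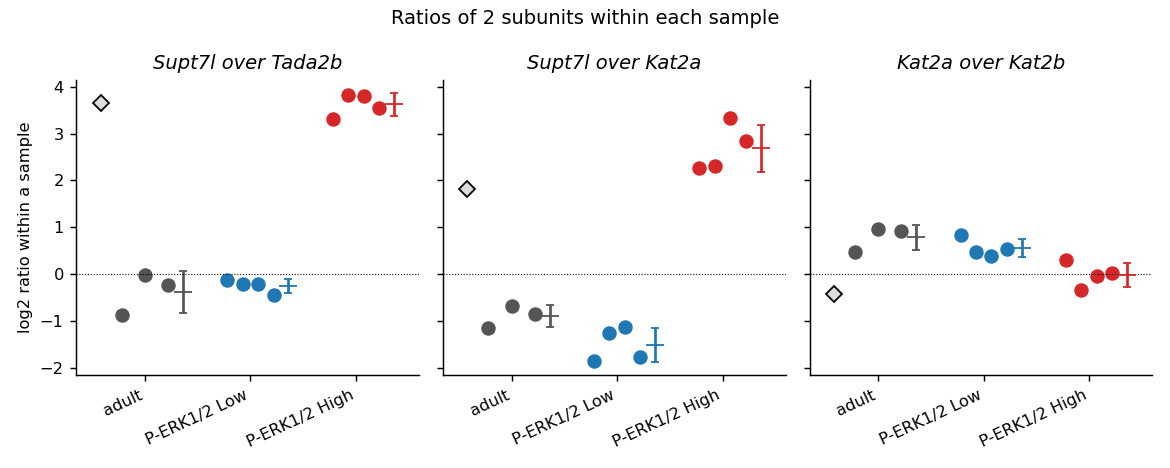
Log2 ratio of a pair of subunit genes within each sample, by group, with the mean and SD as crosses with bars and adult sample 11 as a grey diamond. *Supt7l* over *Tada2b* lies between 3.32 and 3.83 in High and below 0 in the Low and kept adult samples.

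Because *Supt7l* is among the genes that set the scale, its difference enters every other value of the table. The log2 differences of the 13 housekeeping genes between High and Low sum to 0.01 by construction. *Supt7l* stood at 3.34 and the other 12 summed to -3.33, or -0.28 on average. Of the 11 housekeeping genes other than *Supt7l* and *Tada2b*, differences ran from -1.22 for *Lars*, the leucyl-tRNA synthetase, to 0.85 for *Mto1*, a mitochondrial tRNA modifier, and 7 of the 11 were below 0. Against the geometric mean of these 11 genes in its own sample, *Supt7l* stood at 2.26 ± 0.21 (SD, n = 4) in High, -1.35 ± 0.20 (SD, n = 4) in Low and -1.01 ± 0.29 (SD, n = 3) in adult on the log2 scale. *Tada2b* stood at -1.36 ± 0.33 (SD, n = 4), -1.10 ± 0.15 (SD, n = 4) and -0.63 ± 0.22 (SD, n = 3).

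**Figure D3:**
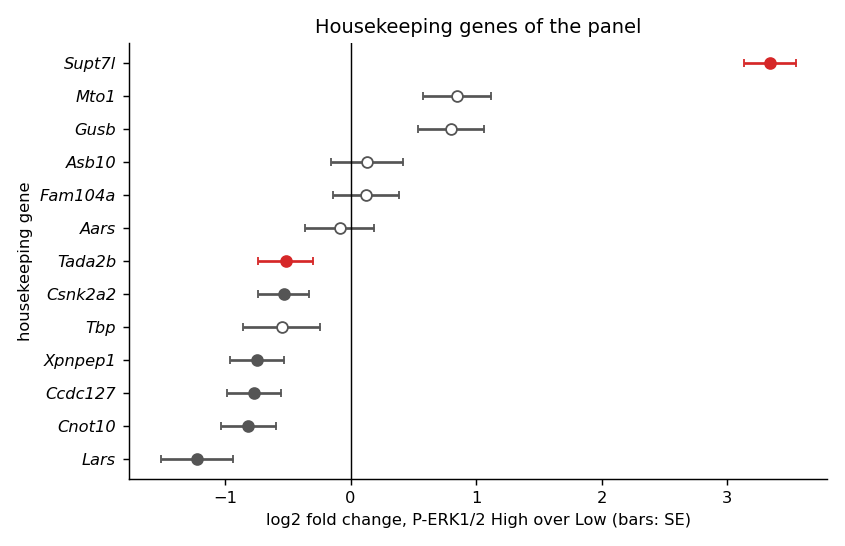
Log2 fold change of each of the 13 housekeeping genes between High and Low (bars SE, n = 4 each). Red marks the SAGA subunits, and filled circles are genes whose groups did not overlap. *Supt7l* at 3.34 lies apart from the other 12, which run from -1.22 to 0.85.

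Scaled by the 12 housekeeping genes without *Supt7l*, the median difference of all 770 genes between High and Low moved from 0.26 to 0.53. The genes called moved from 217 higher and 74 lower to 267 higher and 25 lower. Leaving out any other single housekeeping gene gave a median of 0.15 to 0.33. *Supt7l* itself moved from 3.34 to 3.61, *Tada2b* from -0.52 to -0.24, *Kat2a* from -0.84 to -0.56 and *Kat2b* from -0.27 to 0.01. The same step against adult moved the calls from 225 higher and 59 lower to 274 higher and 21 lower.

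Over 8 scalings, *Supt7l* was above 0 in all 8 in High against Low (2.31 to 5.31) and against adult (1.65 to 4.23). The signs of the other members followed the scaling, which moved the median of all genes from -0.76 to 2.21 in High against Low. Against Low, *Tada2b* and *Kat2a* were above 0 in 2 of 8 scalings, without scaling and with the positive controls, and *Kat2b* was above 0 in 3 of 8. Taken relative to the median of all genes under the same scaling, which removes a factor per sample almost entirely by construction, *Supt7l* stood at 2.95 to 3.10, *Tada2b* at -0.78 to -0.76, *Kat2a* at -1.10 to -1.06 and *Kat2b* at -0.53 to -0.48. Against adult, High stood at 2.53 to 2.73 for *Supt7l*, -1.34 to -1.26 for *Tada2b*, -0.90 to -0.84 for *Kat2a* and -0.11 to -0.04 for *Kat2b*. For Low against adult the same values were -0.38 to -0.33 for *Supt7l*, -0.51 to -0.47 for *Tada2b*, 0.22 to 0.25 for *Kat2a* and 0.45 to 0.46 for *Kat2b*.

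**Figure D4:**
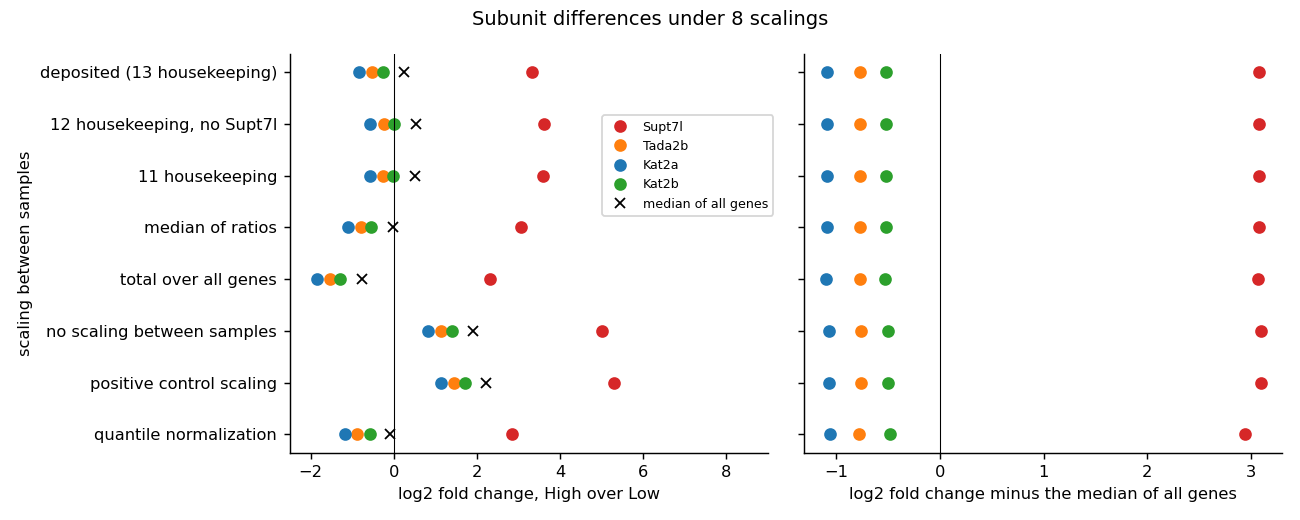
Log2 fold change of the 4 subunit genes between High and Low under 8 ways of scaling the samples (left, with the median of all 770 genes as a cross), and the same after subtracting that median (right). On the left *Supt7l* runs from 2.31 to 5.31 and the other subunits cross 0, while on the right *Supt7l* runs from 2.95 to 3.10 and the others stay below 0, as subtracting the median takes out a factor per sample by construction.

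The genes with a pattern most like that of each member were found as the smallest root mean square difference of centred log2 values over the 11 kept samples. For *Supt7l* they were *Npnt*, an extracellular matrix protein (0.28), *Ifih1*, the RNA sensor MDA5 (0.32), and *Rala*, a small GTPase (0.34), against a median of 1.54 over all other genes. *Npnt* read 1589 ± 273 (SD, n = 4) in High and 197 ± 41.3 (SD, n = 4) in Low. Like *Supt7l*, *Ifih1* was above background in only 1 Low and 2 adult samples, so their likeness in these groups rests on values near background. For *Tada2b* they were *Csnk2a2*, a casein kinase subunit and itself a housekeeping gene of the panel (0.22), *Ercc2*, a helicase of TFIIH (0.23), and *Ifnar2*, an interferon receptor chain (0.23). For *Kat2a* they were *Mertk*, a receptor for apoptotic cells (0.17), *Xpnpep1*, an aminopeptidase and housekeeping gene (0.18), and *Rhoa*, a small GTPase (0.18). For *Kat2b* they were *Myc* (0.15), *Ly9*, a SLAM family receptor (0.18), and *Rps9*, a ribosomal protein (0.19).

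Lists of 28 other panel genes were drawn up, of histone acetylation, deacetylation, H3K4 methylation and chromatin remodelling or of factors that bring SAGA to promoters. In High against Low 10 of the 28 rose and 2 fell, with a median difference of 0.27 against 0.26 over all genes, of which 28.2% were called higher and 9.61% lower. Those that rose included 3 of 5 genes that write or read acetylation, and lists this small are not set apart from the panel by such counts. *Brd2*, a bromodomain protein that reads acetylated histones, rose from 640 ± 56.1 to 3482 ± 610 (SD, n = 4 each), by 2.43 on the log2 scale (SE 0.21, limma adjusted p = 7.4e-06). *Ep300*, the p300 acetyltransferase, rose by 1.71 (SE 0.20, limma adjusted p = 3.65e-05), and *Hat1*, which acetylates newly made histone H4, by 1.61 (SE 0.24, limma adjusted p = 0.000263). *Crebbp*, the paralogue of *Ep300*, differed by 0.44 (SE 0.23) and was not called, and *Brd3* differed by -0.15 (SE 0.23).

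Of the 8 deacetylases and corepressors, 2 rose and 0 fell, against the same 28.2% and 9.61% of all genes. They were *Sin3a*, the scaffold of a deacetylase complex (1.96, SE 0.20, limma adjusted p = 1.57e-05), and *Sirt1*, a NAD-dependent deacetylase (1.64, SE 0.28, limma adjusted p = 0.000606). *Hdac2* and *Hdac4* stood at -0.96 and -0.83 and were not called. Of the 7 genes of H3K4 methylation 3 rose, again beside 28.2% of all genes, *Kmt2c* by 2.02, *Setd1b* by 1.91 and *Wdr5*, a subunit shared by these methyltransferases and by ATAC, by 1.66. Of the 5 remodellers, *Arid1a*, a BAF subunit, rose by 1.75 (SE 0.25). The helicases *Smarca4* and *Smarca5* fell by 1.02 and by 1.19. Both calls were lost with the scaling that leaves out *Supt7l* (-0.74 and -0.91) and without High sample 5 (-0.89 and -0.85), and without scaling (0.66 and 0.49) and with the positive controls (0.96 and 0.80) both lay below the median of all genes, 1.90 and 2.21. The call of *Smarca4* was also lost without Low sample 12 (-0.96), with *Gusb* or *Mto1* left out of the housekeeping genes (-0.95 each), with negative controls subtracted (-0.998) and with a pseudocount of 20 (-0.96), and that of *Smarca5* under a test with unequal variances. Of the recruiting factors, *E2f1* rose by 1.17 (SE 0.34) with overlapping groups, and this call was lost without Low sample 3 or 9 or High sample 2, 5 or 8 (1.02 to 1.13) and under the median of ratios (0.90), quantile normalization (0.74), the total count (0.15) and a test with unequal variances. *Myc* stood at -0.40 and *Trp53* at -0.96, neither called.

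Sample 11 lay above every kept adult sample in all 10 genes called higher in High, with *Brd2* at 3323 against 740 to 859 and *Hat1* at 1416 against 218 to 299.

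The split of these 28 genes moved with the scaling. It was 11 higher and 0 lower without *Supt7l* among the housekeeping genes, 9 higher and 5 lower with the median of ratios, 8 and 5 after quantile normalization (where *Hat1*, at 0.99, was not called), 1 and 13 when scaled to the total count, and 23 and 0 both without scaling and with the positive controls. With the total count, *Brd2* was still called, and the calls of *Ep300* (0.68), *Hat1* (0.58), *Sin3a* (0.93), *Sirt1* (0.62), *Kmt2c* (0.99), *Setd1b* (0.88), *Wdr5* (0.63) and *Arid1a* (0.73) were lost. Over all 770 genes the split moved likewise, from 217 higher and 74 lower to 172 and 125 with the median of ratios and 59 and 311 with the total count. In High against adult 10 rose and 1 fell, beside 29.2% and 7.66% of all genes, with 9 and 4 under the median of ratios (160 and 120 over all genes), 6 and 6 after quantile normalization, 0 and 14 with the total count, 13 and 0 without scaling and 16 and 0 with the positive controls. In Low against adult 1 rose, *E2f1*, from 63.9 ± 12.3 (SD, n = 3) to 144 ± 28.6 (SD, n = 4), by 1.15 (SE 0.20, limma adjusted p = 0.00588), and 0 fell, beside 8.05% and 2.73% of all genes. *E2f1* was above background in 1 of the 3 adults, so the size of this difference is uncertain. The call was lost with sample 11 among the adults (0.50), with the total count (0.77), without scaling (0.31), with the positive controls (0.34) and with a pseudocount of 20 (0.96). With sample 11, High against adult gave 4 higher and 0 lower.

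**Figure D5:**
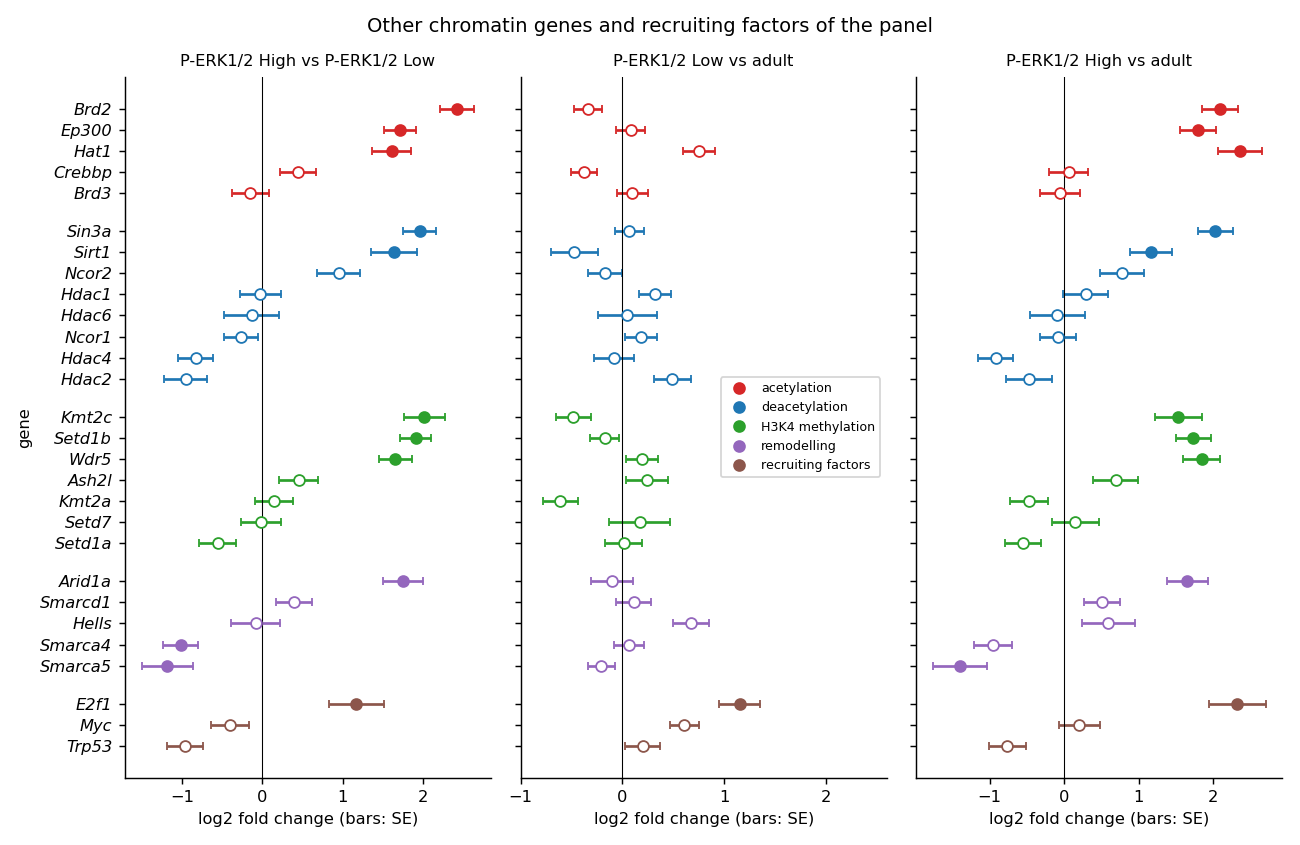
Log2 fold change of 28 other chromatin genes and recruiting factors in the 3 comparisons (bars SE, n = 4 in High and Low and 3 in adult), coloured by list. Filled circles were called by limma. In High against Low 10 lie above 0 and 2 below 0 among the filled circles, and in Low against adult 1 is filled.

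Summed endothelial and astrocyte markers were higher in every High sample than in every Low and kept adult sample, and the sums of the other lists overlapped between High and at least 1 other group. The astrocyte sum followed *Gja1* and *Kcnj10*, 2 of 6 genes of that list called higher against Low, beside 28.2% of all genes. Of the others, *Aldh1l1* stood at 0.67, *Slc1a3* at -0.998, *S100b* at -0.45 and *Agt* at -0.20, none called. All but *Gja1* were above background in no Low sample, so the size of these differences is uncertain. The 6 endothelial markers summed to 622 to 1257 in High, 207 to 312 in Low and 286 to 413 in adult, with 4, 0 and 1 of the 6 above background in every sample of the group. The 6 astrocyte markers summed to 924 to 1492, 522 to 628 and 381 to 516. The 12 T and NK cell markers summed to 351 to 1188, 214 to 301 and 180 to 363. In High, Low and adult, 4, 12 and 11 of them were above background in no sample. *Cd3e* and *Cd3g* were called higher in High than in Low, 2 of 12 beside 28.2% of all genes. The other 10 were not called, and 8 of the 12 lay above 0. The 4 B cell markers summed to 146 to 321, 94.7 to 147 and 59.4 to 143, and the 6 neutrophil and monocyte markers to 268 to 632, 249 to 324 and 291 to 436, with *Ly6g* above background in no kept sample. The 10 neuron markers summed to 375 to 591, 298 to 406 and 261 to 393, and the 9 oligodendrocyte markers to 302 to 442, 365 to 508 and 335 to 568. In High, Low and adult, 3, 9 and 9 neuron markers and 5, 8 and 5 oligodendrocyte markers were above background in no sample. Of the B cell markers these were 1, 4 and 4, and of the neutrophil and monocyte markers 2, 5 and 4. These sums therefore hold mostly values near background in Low and adult. Against Low, 2 neuron markers were called higher and 2 lower, and 1 oligodendrocyte marker lower, beside 28.2% higher and 9.61% lower of all genes. Total counts were also higher in High than in Low in all samples. The part of these transcripts and of depth in the *Supt7l* difference was not tested.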

How the data were processed

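The deposited table holds signal values for 770 genes and 14 control probes in 12 samples, made by the authors in nSolver (version not given in the sources used here) by multiplying each raw count by a factor per sample. All 12 columns were mapped by sample number. The factors were recovered from the values, and 100% of values above 1 were then whole counts within 0.1. Control probes are unscaled counts. Groups were compared with limma (version 3.58.1, R 4.3.3), fitted without a filter to log2 of the value plus 1, with only the groups being compared in each fit. A called gene had p below 0.01 and moved by more than 1 on the log2 scale. Benjamini-Hochberg adjustment covered all 770 genes. The labels do not say whether samples came from separate days, so p-values measure the spread between samples of 2 pooled mice. Genes named are the members, genes called in the lists, genes of lists of under 12 where described, and per member the 3 most alike; *Cd3e*, *Cd3g*, *P2ry12*, *Gpr34* and *Ly6g* were named for their marker lists. Members and lists were chosen with earlier results of these data known. The fit was also run on simulated data, whose outcome is not given here, and no statement rests on it. Of the gene names, 763 matched a RefSeq symbol and 7 a synonym. Promoter sequences are RefSeq's (GRCm38.p6). One panel gene that would belong to a list is not reported here.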

Additional observations from a re-analysis of the deposited data

Results flagged for a closer look

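Adult sample 11, left out of the groups compared except as a named alternative, read 582.52 normalized units for *Supt7l* and 224.17 for *Kat2b*, above every kept adult sample in both genes.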

How the results depend on the processing

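*Supt7l* kept its direction in P-ERK1/2 High under every alternative run. The signs of the other subunits followed scalings that moved all genes (median 1.90 without scaling and 2.21 with positive controls in High against Low). All fold changes here are log2, and the causes of the shifts were not tested unless stated. Depth limits the low side: in P-ERK1/2 Low, *Supt7l* and *Tada2b* rest on 16 to 37 counts near background. No paired analysis was possible, because samples are numbered serially and the labels do not link any High sample to a Low sample. The fits treat them as independent. Whether High and Low samples share mice is not stated. A count model on the recovered counts was not run. The scaling by positive controls and the subtraction of negative controls were chosen after seeing the data. With each sample omitted singly there were 235 to 310 calls for High against Low (291 with all), 75 to 95 for Low against adult (83) and 225 to 303 for High against adult (284), with 3.26 to 3.41 for *Supt7l* in High against Low.

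Without *Supt7l* among the housekeeping genes, High against Low gave 3.61 for *Supt7l*, -0.24 for *Tada2b* and 0.0102 for *Kat2b*, and High against adult 3.32 for *Supt7l*. Without *Supt7l* and *Tada2b* the first 2 were 3.59 and -0.26. The values that follow are in the order *Supt7l*, *Tada2b*, *Kat2a*, *Kat2b*. Total count scaling gave 2.31, -1.52, -1.86 and -1.29 (High against Low), -0.66, -0.79, -0.0497 and 0.18 (Low against adult) and 1.65, -2.31, -1.91 and -1.11 (High against adult), with 0 chromatin genes called in Low against adult and *Sirt1* at -0.24 in High against adult. Quantile normalization gave 2.85, -0.89, -1.16 and -0.58 (High against Low) and 2.48, -1.39, -0.95 and -0.16 (High against adult). The median of ratios gave 3.06 for *Supt7l*, -0.79 for *Tada2b* and -0.54 for *Kat2b* in High against Low, and 2.67, -1.31, -0.90 and -0.10 in High against adult. No scaling gave 5.00, 1.14, 0.83 and 1.40 (High against Low), -1.11, -1.24, -0.51 and -0.28 (Low against adult) and 3.89, -0.10, 0.32 and 1.12 (High against adult), with 599 and 250 genes and 23 and 8 chromatin genes called in the first 2 comparisons, and *Smarca4* at 0.66 and *Smarca5* at 0.49 in High against Low. Positive control scaling gave 5.31, 1.45, 1.14 and 1.71, then -1.07, -1.20, -0.47 and -0.24, then 4.23, 0.24, 0.67 and 1.46, with 655 and 236 genes and 23 and 6 chromatin genes called, and *Smarca4* at 0.96 and *Smarca5* at 0.80.

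Raising low values to the level of unexpressed genes gave *Tada2b* 0.0708 (High against Low) and -0.33 (High against adult). Subtracting negative controls gave *Supt7l* 4.25 and *Tada2b* -0.15 in High against Low, -0.79 and -0.84 in Low against adult with 132 genes called, and *Supt7l* 3.45 in High against adult. A pseudocount of 20, which shrinks low values, gave *Supt7l* 3.06 and 2.83 in High against Low and adult, its ratio to *Tada2b* 3.47 and 3.58, and 0 chromatin genes called in Low against adult. Adding sample 11 left 34 genes called in Low against adult and 49 in High against adult, and 0 and 4 chromatin genes. It gave *Supt7l* -0.93, *Tada2b* -0.0605 and *Kat2b* 0.28 in Low against adult, *Supt7l* 2.40, *Tada2b* -0.58 and *Smarca5* 0.70 (listed at 1 in sample 11) in High against adult, and ratios of *Supt7l* to *Tada2b* of -0.88 and 3.00. A test with unequal variances per gene called 189, 54 and 173 genes in the 3 comparisons.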
